A study of Mus musculus with 9 samples.

Results

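NR4A2 chromatin signal was examined at 38 genes of autophagy, the lysosome and muscle protein breakdown in mouse heart ventricle. A region counted as a member when it touched the RefSeq span of a listed gene in build GRCm38, extended by 10 kb on each side. This gave 81 of the 16884 regions of the deposited table, at 37 of the 38 genes. No region lay within 10 kb of Tfe3, a transcription factor of lysosomal genes. The data are chromatin immunoprecipitation with sequencing (ChIP-seq) with an antibody against NR4A2, a transcription factor of the orphan nuclear receptor family. The 3 NR4A2 hearts came from Nr4a2-icTg mice, which carry a conditional Nr4a2 knock-in at ROSA26 and the tamoxifen-inducible Cre recombinase αMHC-MerCreMer, driven by the Myh6 promoter of cardiomyocytes. The 3 control hearts came from littermates with αMHC-MerCreMer. All 6 mice had received 1 intraperitoneal injection of tamoxifen at 40 mg/kg at 8 to 9 weeks of age and were studied on day 3, so Cre and tamoxifen are common to the groups. Chromatin was prepared from ventricle with all its cell types, and signal in more cells and more signal per cell cannot be told apart. The mice are the replicates, with n = 3 in each group throughout.

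Autophagy encloses cytoplasm in a double membrane, the autophagosome, and delivers it to the lysosome, where acid hydrolases digest it. The kinases ULK1 and ULK2 and the Beclin 1 lipid kinase complex start the membrane, conjugation enzymes attach LC3 and GABARAP proteins to it, and cargo receptors link ubiquitin-tagged proteins or mitochondria to these proteins. In muscle the ubiquitin ligases atrogin-1 (Fbxo32) and the MuRF proteins (Trim63, Trim55, Trim54) mark contractile proteins for the proteasome, and FoxO transcription factors are known to switch on both routes when growth signalling is low. TFEB and TFE3 do the same for lysosomal genes. Heart muscle cells are rarely replaced and depend on these routes to renew organelles and sarcomeres.

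Promoter windows are shown for the genes where a region with a changed signal held bases of the window around the start of transcription, because these are the stretches of listed promoters on which a change was measured. Each window runs from 250 bases before to 50 bases after the start, 5′ to 3′ on the strand of the gene, from RefSeq (GRCm38.p6). Capitals mark the bases inside the changed region. Signal in the regions at Ulk1, Ulk2 and Pink1 was lower in NR4A2 hearts, and they held 221, 300 and 213 bases of the 300-base windows. The region at Gabarapl1 was higher and held only the 30 bases farthest upstream in the window, short of the start.
Ulk1 (chr5:110810032-110810331, minus strand): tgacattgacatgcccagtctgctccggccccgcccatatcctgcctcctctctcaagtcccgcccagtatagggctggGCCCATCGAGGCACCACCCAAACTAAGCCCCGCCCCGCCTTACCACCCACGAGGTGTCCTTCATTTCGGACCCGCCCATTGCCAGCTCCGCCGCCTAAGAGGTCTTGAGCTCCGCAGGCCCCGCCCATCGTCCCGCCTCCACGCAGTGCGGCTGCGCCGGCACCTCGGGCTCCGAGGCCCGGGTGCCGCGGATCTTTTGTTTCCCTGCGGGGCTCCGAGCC
Ulk2 (chr11:61855043-61855342, minus strand): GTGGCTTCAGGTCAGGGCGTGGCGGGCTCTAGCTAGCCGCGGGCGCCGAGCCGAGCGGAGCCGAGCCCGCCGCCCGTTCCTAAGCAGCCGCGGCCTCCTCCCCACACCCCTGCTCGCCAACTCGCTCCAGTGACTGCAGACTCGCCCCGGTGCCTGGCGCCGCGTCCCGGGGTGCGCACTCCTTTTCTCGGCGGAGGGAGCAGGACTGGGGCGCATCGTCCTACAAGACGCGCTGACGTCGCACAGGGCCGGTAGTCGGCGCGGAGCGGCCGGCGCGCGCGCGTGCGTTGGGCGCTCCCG
Pink1 (chr4:138326247-138326546, minus strand): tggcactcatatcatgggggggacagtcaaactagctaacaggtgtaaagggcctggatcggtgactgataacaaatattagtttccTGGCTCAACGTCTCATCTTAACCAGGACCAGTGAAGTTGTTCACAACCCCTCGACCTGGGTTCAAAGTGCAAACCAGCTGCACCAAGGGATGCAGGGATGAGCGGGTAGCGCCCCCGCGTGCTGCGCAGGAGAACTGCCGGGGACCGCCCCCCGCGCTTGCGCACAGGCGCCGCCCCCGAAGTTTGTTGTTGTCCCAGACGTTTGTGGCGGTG
Gabarapl1 (chr6:129532942-129533241, plus strand): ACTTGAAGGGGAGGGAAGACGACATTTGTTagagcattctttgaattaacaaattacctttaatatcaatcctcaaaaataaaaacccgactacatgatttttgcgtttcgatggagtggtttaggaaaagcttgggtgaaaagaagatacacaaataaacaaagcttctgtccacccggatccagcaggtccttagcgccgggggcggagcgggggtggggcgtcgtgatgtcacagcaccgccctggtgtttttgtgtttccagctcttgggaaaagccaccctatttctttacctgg

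These windows were searched on both strands for AAAGGTCA (the NBRE, the site of a single NR4A protein), AGGTCA (the nuclear receptor core hexamer, also contained in the NBRE), GTAAACA (the FoxO site), CACGTG (the E-box core) and TCACGTGA (a CLEAR-type site of TFEB, which contains the E-box core). The only match in the 4 windows was AGGTCA in the Ulk2 window, starting at base 9. Promoter windows were found for 30 of the 38 genes, 34 windows in all. The NBRE was in 0 of these 34 and in 1.51% of all 32851 windows of the table. AGGTCA was in 3 of 34 (8.82%, against 16.3% of all) and GTAAACA in 1, that of Trim63 (2.94%, against 3.65%). CACGTG was in 8 of 34 windows (23.5%, against 7.15%), those of Atg14, Atg3, Atg5, Atg7, Bnip3, Ctsd, Ctsl and Lamp1. TCACGTGA was in those of Atg3 and Ctsd (5.88%, against 0.974%).

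Signal is given in CPM, as the authors deposited it. The CPM of each library summed to between 989059 and 1009112 over the regions, so the unit is counts per about 1e6 reads in regions. The 3 NR4A2 libraries held 637635 to 1035856 reads in regions and the 3 control libraries 549700 to 1027394. A single read stood for 0.955 to 1.81 CPM, depending on the library, and control mouse 3 was the shallowest library. CPM show signal relative to all regions of a library, so a change common to all regions would not appear. A gain at some regions also lowers the share of the others, so a lower CPM need not be a loss of signal. The part of this in the lower calls was not tested. Among markers of heart cell types, all 8 cardiomyocyte genes had regions, 36 in all, of which 9 were higher (25.0%, against 14.7% of all regions) and 4 lower (11.1%, against 3.17%). DESeq2 called 6 higher and 2 lower of these, and limma with no depth scaling 1 and 0 (5 and 3 at an unadjusted p under 0.05). Of 13 regions at 4 of 5 endothelial genes 2 were lower by limma and edgeR (15.4%, against 3.17% of all regions by limma) and 0 by DESeq2 (3 at an unadjusted p under 0.05 by each tool). None of the 13 was higher by limma, edgeR or DESeq2, also at an unadjusted p under 0.05. The part of cell makeup in the results was not tested. The 8 regions at fibroblast, leukocyte and smooth muscle genes gave 0 calls by limma, edgeR or DESeq2, and 1 was lower at an unadjusted p under 0.05.

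Changes at the 81 regions went in either direction, and most regions did not pass the test. By limma on log2(CPM + 1), with Benjamini-Hochberg adjustment over all 16884 regions and a threshold of 0.05, 10 member regions (12.3%) were higher in NR4A2 hearts, against 14.7% of all regions. A further 6 (7.41%) were lower, against 3.17% of all regions. These shares were not tested against each other, and the share of higher regions lies near that of all regions. The higher regions lay at 8 of the 37 genes (21.6%, against 14.2% of all genes with a region) and the lower ones at 5 (13.5%, against 6.25%). A gene with more regions has more chances of a call, and these gene shares do not allow for that. The 37 genes held 81 regions, while the table has 16884 regions and 11154 genes with a region. Fbxo32 and Ulk1 had regions of either kind. Log2 fold changes of the 81 had a median of -0.13, and those of all regions one of -0.06. All 3 NR4A2 mice lay above all 3 control mice in 16 of 81 regions (19.8%, against 19.9% of all regions) and below them in 13 (16.0%, against 11.7%). Without NR4A2 mouse 3 the test called 4 member regions higher and 2 lower, and 1577 and 270 of all 16884 regions. With all 6 mice it called 2475 and 536 of all regions. Without control mouse 3 it called 3 member regions lower, and 354 of all regions. With no scaling for depth it called 5 higher and 0 lower (10 and 5 at an unadjusted p under 0.05), against 8.28% and 0.0829% of all regions. By edgeR 11 were higher and 6 lower, against 15.2% and 3.43% of all regions, and by DESeq2 9 and 3, against 12.9% and 1.49%.

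**Figure D1:**
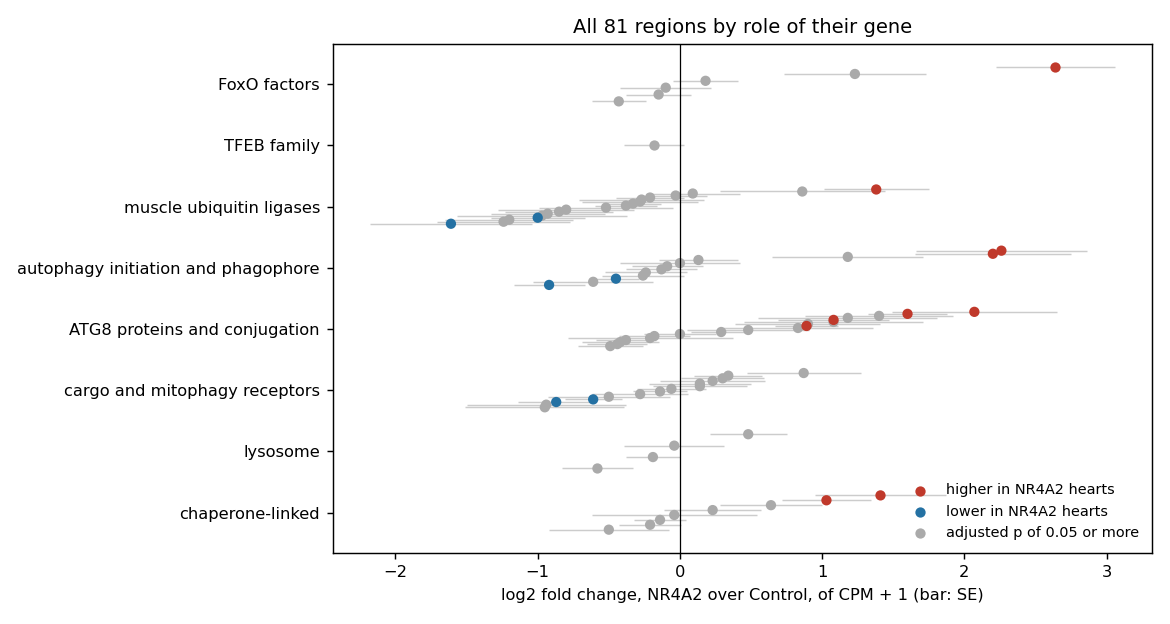
Log2 fold change of CPM + 1, NR4A2 over control, for each of the 81 regions (points, with SE as bars), in rows by the role of the gene. Red points are higher and blue points lower in NR4A2 hearts at an adjusted p under 0.05, and grey points did not pass. Higher regions are spread over 5 roles, and lower regions over 3.

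Among the FoxO genes the change was at Foxo3, which encodes a factor that switches on autophagy genes and atrogin-1 in muscle. A 257 bp region within the gene, 12157 bp from its nearer end (Foxo3 region 1, chromosome 10, 42264282 to 42264538, regions being numbered along the chromosome), held 44.9, 61.5 and 58.0 CPM in NR4A2 mice 1 to 3, against 10.2, 8.76 and 5.43 CPM in control mice 1 to 3. Every NR4A2 mouse was far above every control mouse. The log2 fold change was 2.64 ± 0.42 (SE, adjusted p = 9.65e-07), and the call held in all 12 alternatives that could be run. The other regions of Foxo3 did not pass. The one over its start had 115 ± 24.1 CPM in NR4A2 hearts and 154 ± 13.2 CPM in control hearts (SD, adjusted p = 0.113). At Foxo1, a region within the gene 1663 bp from its end had 23.9 ± 7.43 CPM in NR4A2 hearts and 9.37 ± 1.76 CPM in control hearts (adjusted p = 0.0767), with no overlap of the groups. The region over the Foxo1 start had 89.0 ± 31.8 and 75.6 ± 10.7 CPM, and the single region at Foxo4 39.0 ± 11.6 and 41.4 ± 9.17 CPM, in NR4A2 and control hearts. At Tfeb, the master factor of lysosomal genes, the only region had 91.6 ± 15.5 CPM in NR4A2 hearts and 104 ± 20.7 CPM in control hearts (adjusted p = 0.637).

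The ubiquitin ligases of muscle held 18 regions, of which 1 was higher (5.56%, against 14.7% of all regions) and 2 were lower (11.1%, against 3.17%), all within Fbxo32. Their median log2 fold change was -0.45, and 15 of the 18 were below 0 (83.3%, against 54.7% of all regions), 9 of them at Trim63. Fbxo32 region 3 (chromosome 15, 58194799 to 58195231) had 43.9, 58.3 and 40.4 CPM in NR4A2 mice, against 22.5, 21.4 and 10.9 CPM in control mice (log2 fold change 1.38 ± 0.37 SE, adjusted p = 0.00358). Only 349 bp separate it from Fbxo32 region 2 (58194159 to 58194449), which had 6.68, 4.73 and 7.57 CPM in NR4A2 mice and 16.4, 24.3 and 23.5 CPM in control mice (-1.61 ± 0.57, adjusted p = 0.0361). The groups did not overlap in either region, and the neighbours moved in opposite directions. Fbxo32 region 1 (58192288 to 58192974) had 38.2, 26.8 and 15.1 CPM in NR4A2 mice and 48.2, 63.3 and 43.4 CPM in control mice (-1.0 ± 0.33, adjusted p = 0.0249). The ratio of region 3 to region 2 in the same mouse, which does not depend on the scaling for depth, was 6.57, 12.3 and 5.33 in NR4A2 mice and 1.38, 0.880 and 0.462 in control mice. This pair was singled out after its values were seen, and region 2 rested on 3 to 7 reads per NR4A2 library. The strongest region of Fbxo32, over an end of the gene, had 89.5 ± 20.6 CPM in NR4A2 hearts and 90.3 ± 10.1 CPM in control hearts.

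The call at Fbxo32 region 3 ended with no scaling for depth (adjusted p = 0.0995, 0.00233 to 0.0995 over 11 alternatives). The lower calls at Fbxo32 were less firm. That of region 1 ended without NR4A2 mouse 3 (adjusted p = 0.216), without control mouse 1 (0.0554) or 2 (0.156), with DESeq2 (0.0870), with regions below median CPM left out (0.0849) and with no depth scaling (0.274), in a range of 0.0133 to 0.274. That of region 2 ended without NR4A2 mouse 2 (0.0808), without control mouse 1 (0.0672), 2 (0.175) or 3 (0.122) and with no depth scaling (0.146), in a range of 0.0221 to 0.175.

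Trim63, which encodes MuRF1, had the most regions of any listed gene, and none of its 9 was called by limma, edgeR or DESeq2. All 9 log2 fold changes were below 0, between -1.24 and -0.21 with a median of -0.80, and 3 had an unadjusted p under 0.05. The nearest to the threshold were region 5, with 16.9 ± 14.5 CPM in NR4A2 hearts and 33.9 ± 13.3 CPM in control hearts (SD, adjusted p = 0.0504), and region 8, with 12.2 ± 7.18 CPM in NR4A2 hearts and 28.8 ± 10.7 CPM in control hearts (adjusted p = 0.0522). The groups overlapped in these regions, but not in 2 others of the 9. Region 3 had 17.2 ± 1.98 CPM in NR4A2 hearts and 34.1 ± 6.92 CPM in control hearts (log2 fold change -0.93, adjusted p = 0.0931). In region 1 over the start, NR4A2 hearts had 101 ± 10.2 CPM and control hearts 127 ± 7.76 CPM (adjusted p = 0.267). The regions at Trim55 (MuRF2) and Trim54 (MuRF3) were weak, at 14.3 to 23.6 CPM on average in NR4A2 hearts and 8.37 to 25.9 CPM in control hearts, with adjusted p of 0.339 to 0.713.

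**Figure D2:**
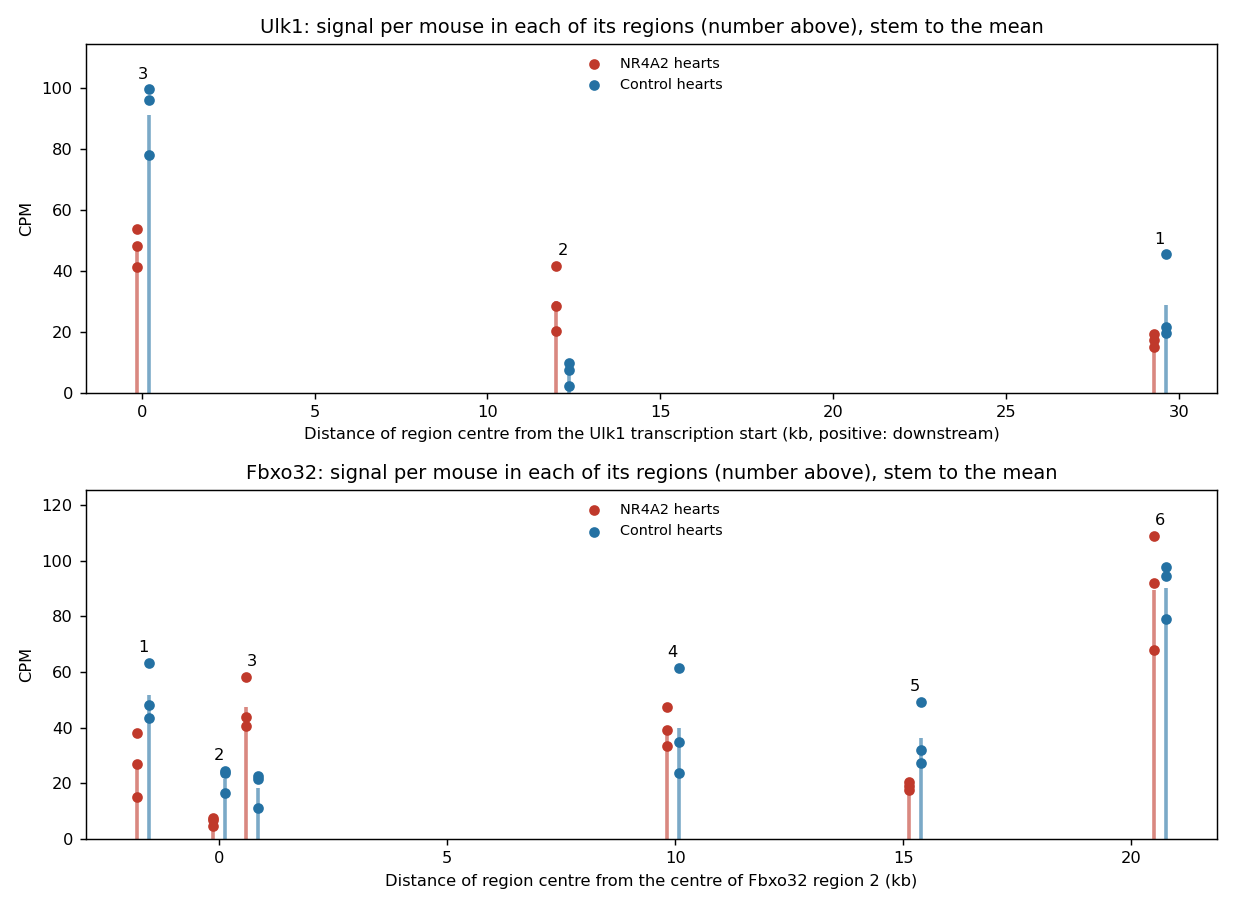
Signal in CPM of each mouse (points; red NR4A2, blue control; stems reach the mean) in the regions of Ulk1, by distance of the region centre from the transcription start, and of Fbxo32, by distance from the centre of its region 2, in kb. The points of the groups are set slightly apart sideways. At Ulk1 the region at the start is lower and region 2 higher in NR4A2 hearts, and at Fbxo32 regions 1 and 2 are lower and region 3 higher.

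Genes that start the autophagosome held 12 regions, 2 of them higher, at Ulk1 and Atg14 (16.7%, against 14.7% of all regions), and 2 lower, at Ulk1 and Ulk2 (16.7%, against 3.17%). At Ulk1, the kinase that receives the starvation signal, the region over the start (Ulk1 region 3, chromosome 5, 110809825 to 110810252, shown above as sequence) had 41.1, 53.6 and 47.9 CPM in NR4A2 mice, against 99.4, 77.9 and 95.9 CPM in control mice. A region within the gene (Ulk1 region 2, 110797771 to 110798053), with its centre 12169 bp downstream of the start, had 20.1, 28.4 and 41.6 CPM in NR4A2 mice, against 2.05, 9.73 and 7.24 CPM in control mice. The groups did not overlap in either. The log2 fold changes were -0.92 ± 0.25 (SE, adjusted p = 0.00336) at the start and 2.20 ± 0.55 (adjusted p = 0.00173) within the gene. The ratio of region 2 to region 3 in the same mouse was 0.488, 0.529 and 0.868 in NR4A2 mice and 0.0206, 0.125 and 0.0755 in control mice. It too was taken up after the values were seen, and control mouse 1 had only 2 reads in region 2. The call at the start ended with no depth scaling (adjusted p = 0.245, 0.00171 to 0.245 over 12 alternatives), and that within the gene without NR4A2 mouse 3 (0.0506, 5.61e-04 to 0.0506 over 11).

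At Ulk2, the sister kinase, the region over the start (chromosome 11, 61854110 to 61855448) was the strongest of all 81 in either group, with 259, 232 and 267 CPM in NR4A2 mice and 299, 302 and 458 CPM in control mice. All NR4A2 mice lay below all control mice, and control mouse 3 stood well above the others. The log2 fold change was -0.45 ± 0.16 (SE, adjusted p = 0.0373), and it was -0.25 without control mouse 3 (adjusted p = 0.340). The call ended in 7 of the 12 alternatives at this threshold: without any 1 NR4A2 mouse, without control mouse 3, with DESeq2, with weak regions left out and with no depth scaling (adjusted p of 0.0236 to 0.761 over all 12). The region is also assigned to Akap10. Atg14, the subunit that directs the Beclin 1 complex to autophagy, had a higher region 4231 bp outside the gene (Atg14 region 2, chromosome 14, 47572665 to 47572903). It held 16.2, 28.4 and 39.1 CPM in NR4A2 mice and 10.2, 0.973 and 7.24 CPM in control mice. The lowest NR4A2 mouse was above the highest control mouse, and the value of control mouse 2 was 1 read. The log2 fold change was 2.26 ± 0.60 (adjusted p = 0.00344), 1.5 without control mouse 2, and the call ended without NR4A2 mouse 3 (adjusted p = 0.0775, 9.40e-04 to 0.0775 over 11 alternatives). The region over the Atg14 start had 15.3, 26.8 and 24 CPM in NR4A2 mice and 25.6, 23.4 and 16.3 CPM in control mice, with overlap (adjusted p = 0.997).

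The remaining initiation genes did not pass at any region. Atg13, the adaptor of the ULK kinases, had 66.1 ± 17.2 and 69.4 ± 8.56 CPM over its start and 22.3 ± 10.7 and 8.73 ± 1.32 CPM in a region within the gene (adjusted p = 0.117), in NR4A2 and control hearts. Atg9a, which supplies membrane, and Wipi1 and Wipi2, which bind the lipid that the Beclin 1 complex makes, each had 1 region over the start, at 44.1 to 66.4 CPM in NR4A2 hearts and 50.3 to 71.4 CPM in control hearts (adjusted p of 0.603 to 0.808). The only region assigned to Becn1 lay 9195 bp outside it and nearer to other genes (45.3 ± 16.7 CPM in NR4A2 hearts and 51.3 ± 4.32 CPM in control hearts, adjusted p = 0.646).

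The ATG8 proteins and their conjugation enzymes held 18 regions, of which 4 were higher, at Map1lc3a, Gabarapl1 and Atg7 (22.2%, against 14.7% of all regions). None was lower by limma, edgeR or DESeq2 (2, 2 and 0 at an unadjusted p under 0.05). The median log2 fold change was 0.65, and it was -0.09 without the 6 regions, all of Map1lc3a, that lie nearer to Pigu, a choice made after the values were seen. Of the 12 regions left 2 were higher. Map1lc3a encodes LC3A, a form of the protein that coats autophagosomes. Region 7 (chromosome 2, 155287343 to 155288249), 9270 bp outside the gene and nearer to Pigu, had 90.7, 102 and 87.0 CPM in NR4A2 mice, against 33.8, 43.8 and 18.1 CPM in control mice. Region 2 (155278323 to 155279501), 250 bp outside and also nearer to Pigu, had 137, 102 and 119.8 CPM in NR4A2 mice, against 53.3, 81.8 and 59.7 CPM in control mice. In each the groups were apart, with log2 fold changes of 1.60 ± 0.28 (SE, adjusted p = 6.30e-06) and 0.89 ± 0.22 (adjusted p = 0.00148). The call at region 7 held in all 13 alternatives, and that at region 2 ended with no depth scaling (adjusted p = 0.302, 5.79e-04 to 0.302 over 12). All 7 regions of Map1lc3a had a log2 fold change above 0, and the one that comes within 8 bp of its end had 115 ± 24.6 CPM in NR4A2 hearts and 92.7 ± 6.02 CPM in control hearts (adjusted p = 0.373).

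At Gabarapl1, a relative of LC3, the region just upstream of the start (chromosome 6, 129532634 to 129532971) had 37.2, 36.3 and 35.3 CPM in NR4A2 mice, against 15.4, 16.5 and 18.1 CPM in control mice. The mice of each group lay close together and the groups were apart. The log2 fold change was 1.08 ± 0.39 (SE, adjusted p = 0.0400), and the call ended without any 1 NR4A2 mouse, without control mouse 1 or 2, with DESeq2 and with no depth scaling (adjusted p of 0.0372 to 0.323 over 11 alternatives). Atg7, the enzyme that activates LC3 for conjugation, had a higher region deep within the gene (Atg7 region 2, chromosome 6, 114812391 to 114812860), 47744 bp from its nearer end. It had 12.4, 36.3 and 39.1 CPM in NR4A2 mice and 13.3, 1.95 and 5.43 CPM in control mice. NR4A2 mouse 1 lay just below control mouse 1, so the groups overlapped, and control mouse 2 had 2 reads. The log2 fold change was 2.07 ± 0.58 (adjusted p = 0.00574), and the call ended without NR4A2 mouse 2 (0.0665) or 3 (0.100), in a range of 0.00161 to 0.100 over 11 alternatives. The other Atg7 region, 70342 bp from an end, had 28.1 ± 18.3 and 10.6 ± 6.64 CPM in NR4A2 and control hearts (adjusted p = 0.0502), and the authors' deposited table called it up, with an FDR of 0.0377.

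The other conjugation genes did not pass at any region. Map1lc3b, which encodes LC3B, had 87.2 ± 17.4 CPM in NR4A2 hearts and 119.7 ± 29.7 CPM in control hearts over its start (adjusted p = 0.148, and 0.0498 without control mouse 1, in a leave-one-out range of 0.0498 to 0.484). At Atg3, the enzyme that transfers LC3 to lipid, the values were 81.3 ± 10.5 CPM in NR4A2 hearts and 106 ± 15.5 CPM in control hearts (adjusted p = 0.234). Atg5, Atg12 and Atg16l1 form the complex that places LC3 on the membrane, and their regions averaged 47.9 to 64.4 CPM in NR4A2 hearts and 65.1 to 91.3 CPM in control hearts (adjusted p of 0.137 to 0.681). The groups did not overlap at Atg12, which had 64.4 ± 6.29 CPM in NR4A2 hearts and 91.3 ± 13.8 CPM in control hearts.

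**Figure D3:**
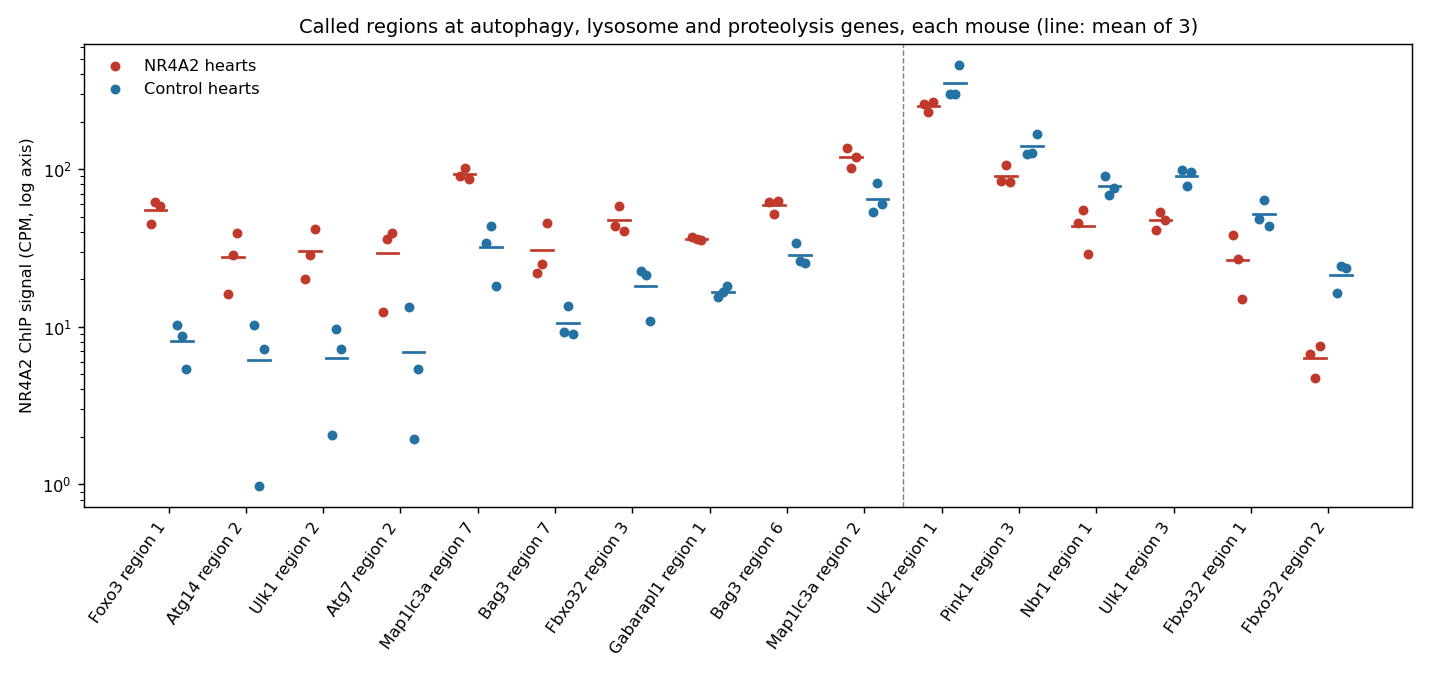
Signal in CPM (log axis) of each mouse in the 16 called regions, NR4A2 hearts in red left of control hearts in blue, with a line at the mean of 3. The 10 higher regions stand left of the dashed line and the 6 lower ones right of it, and the groups overlap in Atg7 region 2.

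Cargo and mitophagy receptors held 14 regions, of which 2 were lower, at Nbr1 and Pink1 (14.3%, against 3.17% of all regions). None was higher by limma, edgeR or DESeq2 (1, 1 and 0 at an unadjusted p under 0.05). Nbr1, a receptor for ubiquitin-tagged cargo that also lies at the sarcomere, had 1 region within the gene (chromosome 11, 101552707 to 101553196), 600 bp from the nearer end and also assigned to Brca1. It had 45.8, 55.2 and 29.0 CPM in NR4A2 mice, against 90.2, 68.1 and 76.0 CPM in control mice (log2 fold change -0.87 ± 0.27 SE, adjusted p = 0.0122). At Pink1, the kinase that marks damaged mitochondria for removal, the region over the start (chromosome 4, 138325676 to 138326459) had 84.0, 106 and 83.2 CPM in NR4A2 mice, against 125, 126 and 168 CPM in control mice (-0.61 ± 0.20, adjusted p = 0.0220). All NR4A2 mice lay below all control mice at these regions. The call at Nbr1 ended without NR4A2 mouse 3 (adjusted p = 0.143), without control mouse 1 (0.0854) and with no depth scaling (0.316), in a range of 0.00427 to 0.316. That at Pink1 ended without NR4A2 mouse 1 (0.0906) or 3 (0.105), without control mouse 3 (0.137), with DESeq2 (0.0531) and with no depth scaling (0.589), in a range of 0.0143 to 0.589.

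Sqstm1, which encodes the receptor p62, had 4 regions with adjusted p of 0.268 to 0.823. The one over its start had 132 ± 34.1 CPM in NR4A2 hearts and 142 ± 11.7 CPM in control hearts, with overlap of the groups. Bnip3, a mitophagy receptor of the outer mitochondrial membrane, had 83.6 ± 23.3 CPM in NR4A2 hearts and 65.6 ± 16.4 CPM in control hearts over its start (adjusted p = 0.375). A Bnip3 region 2148 bp inside the gene had 33.1 ± 9.46 CPM in NR4A2 hearts and 17.5 ± 4.25 CPM in control hearts, without overlap (adjusted p = 0.134). Its relative Bnip3l had 53.4 ± 7.85 and 44.0 ± 12.0 CPM, the receptor gene Optn 30.8 ± 4.99 and 38.1 ± 9.65 CPM, and Calcoco1 32.8 ± 7.38 and 30.3 ± 10.5 CPM in NR4A2 and control hearts (adjusted p of 0.535 to 0.845).

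The 4 listed lysosome genes had 1 region each, at or near the start, and 0 of these 4 were called by limma, edgeR or DESeq2 (1 was lower at an unadjusted p under 0.05). That region was at Lamp1, a main protein of the lysosomal membrane, with 60.2, 44.1 and 58.0 CPM in NR4A2 mice and 63.5, 89.5 and 92.3 CPM in control mice. The groups lay close but did not overlap (log2 fold change -0.58 ± 0.25 SE, adjusted p = 0.0947). Lamp2, needed for autophagosomes to fuse with lysosomes, had 43.9, 28.4 and 25.2 CPM in NR4A2 mice and 32.8, 34.1 and 30.8 CPM in control mice, which overlap (adjusted p = 0.957). The gene of the protease cathepsin L, Ctsl, had 126 ± 21.6 CPM in NR4A2 hearts and 143 ± 16.3 CPM in control hearts (adjusted p = 0.557). That of cathepsin D, Ctsd, had 62.3 ± 11.7 CPM in NR4A2 hearts and 44.2 ± 6.86 CPM in control hearts (adjusted p = 0.245).

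Bag3 encodes a co-chaperone that hands damaged Z-disc proteins to autophagy, and 2 of its 7 regions were higher, while 14.7% of all regions were. They lie side by side near the far end of the gene. Region 6 (chromosome 7, 128543643 to 128544237) had 62.1, 52.0 and 63.1 CPM in NR4A2 mice, against 33.8, 26.3 and 25.3 CPM in control mice (log2 fold change 1.03 ± 0.31 SE, adjusted p = 0.00958). Region 7 (128544727 to 128545120) had 22, 25.2 and 45.4 CPM in NR4A2 mice, against 9.22, 13.6 and 9.05 CPM in control mice (1.41 ± 0.46, adjusted p = 0.0209). The groups were apart in each. Over the start, region 1 was strong, with 182 ± 49.5 CPM in NR4A2 hearts and 197 ± 26.7 CPM in control hearts (adjusted p = 0.651). The call at region 6 ended without NR4A2 mouse 1 (adjusted p = 0.0510) or 3 (0.0595) and with no depth scaling (0.264), in a range of 0.00752 to 0.264. That at region 7 ended without NR4A2 mouse 3 (0.179), without control mouse 1 (0.0565) and with no depth scaling (0.161), in a range of 0.0130 to 0.179. Vcp, an ATPase that pulls ubiquitin-tagged proteins from complexes, had 83.1, 86.7 and 73.2 CPM in NR4A2 mice and 77.9, 93.4 and 112 CPM in control mice at its only region, with overlap (adjusted p = 0.578).

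Most higher member regions lay away from gene ends and were weak in control hearts, while most lower ones lay at gene ends and were strong there. Of the 46 member regions within 1 kb of the end of any protein-coding gene, 2 were higher (4.35%, against 2.31% of all such regions) and 4 lower (8.70%, against 4.02%). Of the 35 farther away, 8 were higher (22.9%, against 26.1% of all such regions) and 2 lower (5.71%, against 2.39%). The median log2 fold change was -0.19 within 1 kb and 0.48 beyond it, and over all regions of the table it was -0.18 and 0.26. The 10 higher regions had a median of 41.9 CPM in NR4A2 hearts and 13.7 CPM in control hearts, and the 6 lower regions 45.4 CPM in NR4A2 hearts and 84.6 CPM in control hearts. Over all higher regions of the table the medians were 38.8 CPM in NR4A2 hearts and 9.70 CPM in control hearts, and over all lower regions 57.3 CPM in NR4A2 hearts and 95.8 CPM in control hearts. The calls were made from these same values, so the contrast in control level between higher and lower regions is partly fixed by the sorting. Of the 30 genes with a promoter window, 27 had a region that touched it, 1 each. Of these 27 regions 1 was higher, 3 were lower and 23 did not pass, and 20 had a log2 fold change below 0 (median -0.18). Calls and signs at promoter windows were not counted over the whole table. These numbers therefore do not set the listed promoters apart from other promoters. Their median equals the -0.18 given above for the whole table at distances up to 1 kb, a wider class. The difference between the members and all regions at like distances was not tested.

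**Figure D4:**
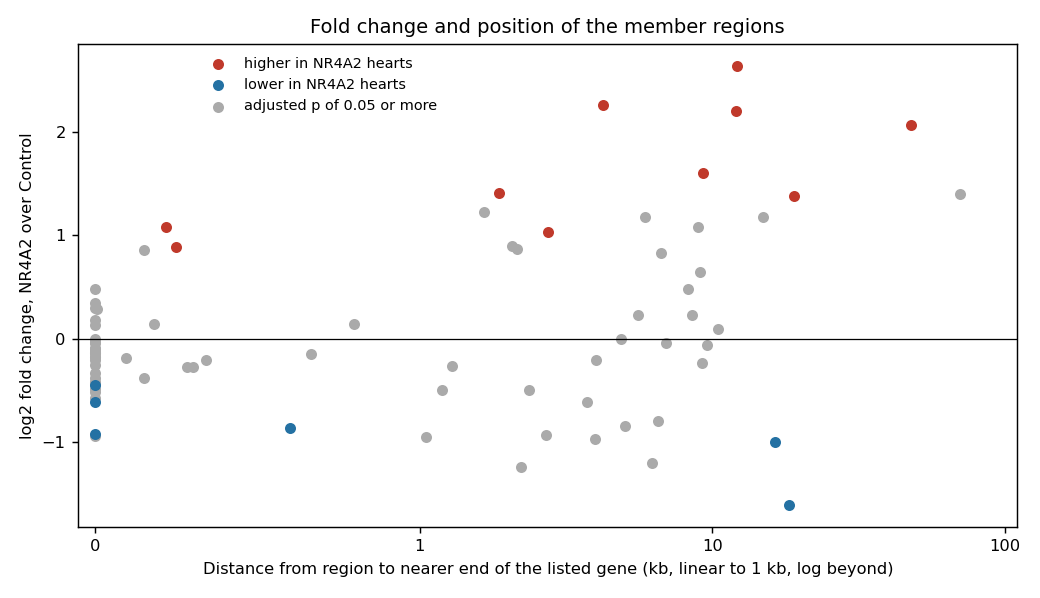
Log2 fold change, NR4A2 over control, of the 81 regions by distance in kb to the nearer end of the listed gene (linear to 1 kb, log beyond). Red regions are higher, blue ones lower and grey ones did not pass; 8 of the 10 red points lie beyond 1 kb, and 4 of the 6 blue ones within it.

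Further genes of the same routes are described by counts of calls, to be read against 14.7% of all regions higher and 3.17% lower. Of 51 regions at 30 of 33 other autophagy genes 1 was higher (1.96%) and 4 were lower (7.84%). The higher one was deep within Atg10, the enzyme that joins ATG12 to ATG5, with 27.7, 20.5 and 22.7 CPM in NR4A2 mice and 5.12, 4.87 and 3.62 CPM in control mice (log2 fold change 2.15 ± 0.60 SE, adjusted p = 0.00572, and 0.0511 without NR4A2 mouse 1). Lower regions lay within Wdfy3 (2 of 2 regions, -1.69 ± 0.43 for 1 of them), which encodes a scaffold for cargo aggregates, over an end of Wdr45b (-0.74 ± 0.22) and near Gabarap (-0.64 ± 0.22), the last being nearer to another gene. The Gabarap call ended with any of 4 mice left out, those being NR4A2 mouse 1 (adjusted p = 0.100), NR4A2 mouse 2 (0.291), control mouse 2 (0.0735) and control mouse 3 (0.138).

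Of 64 regions at 38 of 50 other lysosome genes 4 were higher (6.25%) and 1 lower (1.56%). Mitf, a relative of Tfeb and Tfe3, had 2 of 3 regions higher. The named one, within the gene (chromosome 6, 97877501 to 97877951), had 54.4, 77.2 and 75.7 CPM in NR4A2 mice, against 21.5, 14.6 and 16.3 CPM in control mice, a wide gap between the groups (log2 fold change 1.92 ± 0.33 SE, adjusted p = 5.27e-06). A region 1132 bp outside Atp6v0a1, a subunit of the pump that acidifies lysosomes, was also assigned to Naglu (1.86 ± 0.36, adjusted p = 4.15e-05). The region of Gusb lay 2724 bp outside that gene and nearer to Vkorc1l1 (2.87 ± 0.57). It had 23.9, 29.9 and 61.8 CPM in NR4A2 mice and 10.2, 2.92 and 1.81 CPM in control mice. The value of control mouse 3 was 1 read. The lower region was over an end of Atp6v1d (-0.79 ± 0.26, adjusted p = 0.0240), and its call ended without NR4A2 mouse 2 (0.330) or control mouse 2 (0.118).

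Of 62 regions at 27 of 30 other proteolysis genes 3 were higher (4.84%) and 1 lower (1.61%). The higher ones lay within the ubiquitin ligase gene Nedd4 (log2 fold change 1.86 ± 0.48 SE, adjusted p = 0.00239), within Cast, which encodes the calpain inhibitor (2.03 ± 0.56, adjusted p = 0.00461), and near Stub1 (0.66 ± 0.22, adjusted p = 0.0223). The calls ended without NR4A2 mouse 3 at Cast (0.0782) and without NR4A2 mouse 1 (0.0732) or 3 (0.0923) or control mouse 1 (0.173) at Stub1, whose region is nearer to another gene. The lower one lay within Ube2b, a ubiquitin-conjugating enzyme gene, with 173, 145 and 140.0 CPM in NR4A2 mice and 244, 240.4 and 288 CPM in control mice (-0.75 ± 0.17, adjusted p = 5.04e-04). At 46 regions of 31 of 33 proteasome genes limma, edgeR and DESeq2 called 0 higher (1, 1 and 0 at an unadjusted p under 0.05). By limma 1 was lower (2.17%), assigned to Psmd2 from 9257 bp away (-0.63 ± 0.22, adjusted p = 0.0355). That call ended without NR4A2 mouse 1 (0.111) or 3 (0.161) and without control mouse 2 (0.171) or 3 (0.122).

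The authors' deposited table called 11 of the 81 regions up (13.6%, against 14.9% of all regions) and 4 down (4.94%, against 1.95%). All 10 higher regions of the limma test were among the 11, and 4 of its 6 lower regions were the 4. The others, at Ulk2 and Pink1, had an FDR of 0.0510 and 0.0267 and a log2 fold change of -0.47 and -0.61 in the authors' deposited table and were given there as unchanged.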

How the data were processed

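Of 9 samples, the 6 ChIP libraries of single mice have a column in the table; 1 antibody test ChIP and 2 inputs were not used here. Per the submitters' processing notes, reads were aligned with BWA to GRCm38 (mm10). How regions were called and merged, which counter and filters were used, and any use of the fly spike-in before counting: not given in the sources used here. Per region, the authors deposited CPM per mouse, and, per the file headers, a log2 fold change, a log2 mean CPM, a p-value and an FDR. Every CPM was a whole multiple of 1 read (100.0% of values, tolerance 0.001 of a read), so whole reads were recovered. In each library, the median region held 20 to 40 reads.

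Since the values are CPM, the test was limma 3.58.1 (R 4.3.3) with trend and robust moderation on log2(CPM + 1), genotype as the only term, two-sided, over all 16884 regions with no filter. Each fold change is a difference of group means on this scale, which understates weak regions. An adjusted p-value with no tool named comes from limma. Alternatives were edgeR 4.0.16 and DESeq2 1.42.0 on recovered reads, a pseudocount of 5, only regions of at least median CPM, no depth scaling, a replicate block, each mouse left out, a threshold of 0.01, and other assignments of regions to genes. Medians by role without regions nearer to another gene were added after seeing the data. The code was tested on simulated data. Regions were placed against 21900 protein-coding genes of RefSeq GRCm38.p6, whose table gives gene ends but no exons, so exon and intron are not told apart.

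The members, roles, further lists and markers were chosen with earlier results of these data known. The rule for names took, for each gene, the higher and the lower region of lowest adjusted p, and the region of highest CPM of a gene with none called. Fbxo32 region 2, Map1lc3a region 2, Bag3 region 7 and the further uncalled regions were added after their values were seen. Of each further list, up to 6 genes per direction were named by lowest adjusted p. A promoter window counted as covered when a called region held at least 1 of its bases.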

Additional observations from a re-analysis of the deposited data

How the results depend on the processing

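Directions at the 16 called member regions held under every alternative run, but the calls often did not. Only Foxo3 region 1 and Map1lc3a region 7 kept theirs in every alternative, and 5 of 16 kept theirs with each mouse left out. Counts of higher regions, lower regions, genes with a higher region and genes with a lower region were 10, 6, 8 and 5. They were 3, 3, 2 and 3 with only regions of at least median CPM, where 40 of the 81 were tested. In that setting 481 of all 8442 regions tested were higher and 235 lower. With no depth scaling the member counts were 5, 0, 5 and 0, while 1398 of all 16884 regions were higher and 14 lower. DESeq2 gave 3 lower regions at 3 genes, and a threshold of 0.01 gave 1 at 1 gene. Over all 16884 regions these settings gave 251 and 137 lower regions, against 536 in the main test. Without the 10 kb extension, which leaves 60 regions, 6 regions at 5 genes were higher. With 1 mouse left out the counts were 4 to 11, 2 to 6, 3 to 8 and 2 to 6, lowest without NR4A2 mouse 3. Calls over all 16884 regions were also fewest without that mouse, at 1577 higher and 270 lower. Mice with the same number did not deviate together (correlations -0.0658, 0.0609 and 0.0326). With 3 mice per group this cannot exclude that the numbers pair them. The replicate block gave 11, 8, 8 and 6, and 2540 higher and 580 lower over all regions. edgeR, a pseudocount of 5 and regions with no nearer gene stayed within 1.5 times.

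Among uncalled regions near 0, signs turned with a mouse left out at Foxo1 region 1 (log2 fold change -0.06 to 0.48), Bnip3 region 3 (-0.40 to 0.21), Wipi2 (-0.29 to 0.10), Atg13 region 2 (-0.29 to 0.02), Becn1 (-0.50 to 0.02), Foxo4 (-0.32 to 0.08), Lamp2 (-0.27 to 0.12, and 0.02 with edgeR) and Calcoco1 (-0.07 to 0.39). Leaving out regions nearer to another gene, chosen after seeing the data, turned the median of the ATG8 and conjugation genes to -0.09, against 0.65 with them. Why these results moved was not tested. Depth limits the weakest regions, where 1 or 2 reads in a control library enter the fold change.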
